A study of Macaca fascicularis with 2 samples.

Results

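The messenger RNAs of 36 nuclear-encoded structural subunits of respiratory complex I, the mitochondrial NADH dehydrogenase, are described here in gastrocnemius, a calf muscle, of the cynomolgus macaque Macaca fascicularis. The subunits were listed by gene symbol, with earlier results of these data known, and all 36 were found among the 28162 genes in the files. The sample labelled non-lean was on a high fat diet and the sample labelled lean on a chow diet, with 1 library from each. The labels do not say how many animals, or of what age, gave each sample. The study's design text asks which genes differ in expression between obese and lean skeletal muscle. The non-lean library held 12731973 counts and the lean library 15983348. With 1 library per group there is no replicate error and no test between the groups. Every difference below compares these 2 libraries, and the intervals in square brackets are 95% counting intervals.

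Complex I takes electrons from NADH, passes them along a chain of iron-sulphur clusters to ubiquinone, and uses the energy to pump protons across the inner mitochondrial membrane. It is L-shaped. The N module at the tip of the matrix arm oxidises NADH, the Q module below it reduces ubiquinone, and the membrane arm pumps protons. Core subunits are those shared with bacteria and carry the redox centres and the pumps. Accessory subunits surround and stabilise them. The pump cores are encoded in mitochondrial DNA and are not analysed here, so every pump subunit described below is an accessory one. Slow oxidative muscle fibres hold more mitochondria than fast glycolytic fibres.

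Complex I subunit messages were higher in the non-lean library in 34 of 36 cases. The interval lay above 0 for 33 of the 36, against 25.8% of the tested genes defined below. The excess was not even across the complex. It was largest in the distal pump, intermediate in the proximal pump and the Q module, and smallest in the N module, by the medians of the modules as assigned here. Whether the ratios follow the length of the messages was not tested. The 3 core subunits of the N module, NDUFV1, NDUFV2 and NDUFS1, handle NADH and the first electron transfers. Summed, they had nearly equal levels in both libraries with the scaling used here. Of these, NDUFV1 was higher in the non-lean library, at a log2 ratio of 0.18, and NDUFS1 was lower, at -0.58. The summed level of the 36 subunits was 5266 counts per 1000000 counts (CPM, with library sizes corrected by edgeR's trimmed mean of M-values, TMM) in the non-lean library and 3549 CPM in the lean library, a fold of 1.48 between the libraries. In these bulk samples more muscle cells of one type and more RNA per cell cannot be told apart.

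Over the 36 subunits, the log2 ratio of non-lean to lean had a median of 0.60, with quartiles of 0.44 and 0.80, against -0.01 over the 13703 tested genes, with quartiles of -0.39 and 0.34. Tested genes are those whose scaled CPM averaged 1 or more over the pair of libraries, and all 36 subunits passed that filter. The interval lay above 0 for 33 subunits, below 0 for 1 and held 0 for 2, whereas it lay above 0 for 25.8% and below 0 for 28.7% of tested genes. At least 1.5-fold higher with the interval above 0 were 21 subunits, or 58.3%, against 11.9% of tested genes. No subunit was at least 1.5-fold lower with the interval below 0, against 15.4% of tested genes. With DESeq2 size factors 17 subunits were at least 1.5-fold higher, without NDUFA10, NDUFA12, NDUFS8 and NDUFV3, and 1, NDUFS1, was at least 1.5-fold lower. With the same factors 1490 of the 13703 tested genes were at least 1.5-fold higher and 2261 at least 1.5-fold lower. At least 2-fold higher were 2 subunits, against 4.90% of tested genes.

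Counts of abundant genes give narrow intervals, so the same shares were taken over genes of like abundance. The subunits' mean levels ran between 41.5 and 267 CPM, a range that held 2473 tested genes. Of these, 8.61% were at least 1.5-fold higher with the interval above 0, and 37.3% had an interval above 0. The smallest count of any subunit in either library was 407 and the largest 4126. The SD of the log2 ratio over the 36 subunits was 0.33, while the median half-width of their counting intervals was 0.10. Across the 36 subunits, which share both libraries, the log2 ratio had a Pearson r of 0.04 and a Spearman rho of -0.07 against log2 mean CPM, given as a description.

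All ratios depend on how the libraries are scaled. Total counts in place of TMM scaling raise every log2 ratio by 0.14, the median of all tested genes included. Under TMM scaling, 43.6% of the genes past the 1.5-fold limit lay on the higher side (1629 higher and 2109 lower in the non-lean library). With total counts the share was 60.7% (2402 higher and 1557 lower). Comparisons between subunits are not touched by this choice.

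**Figure D1:**
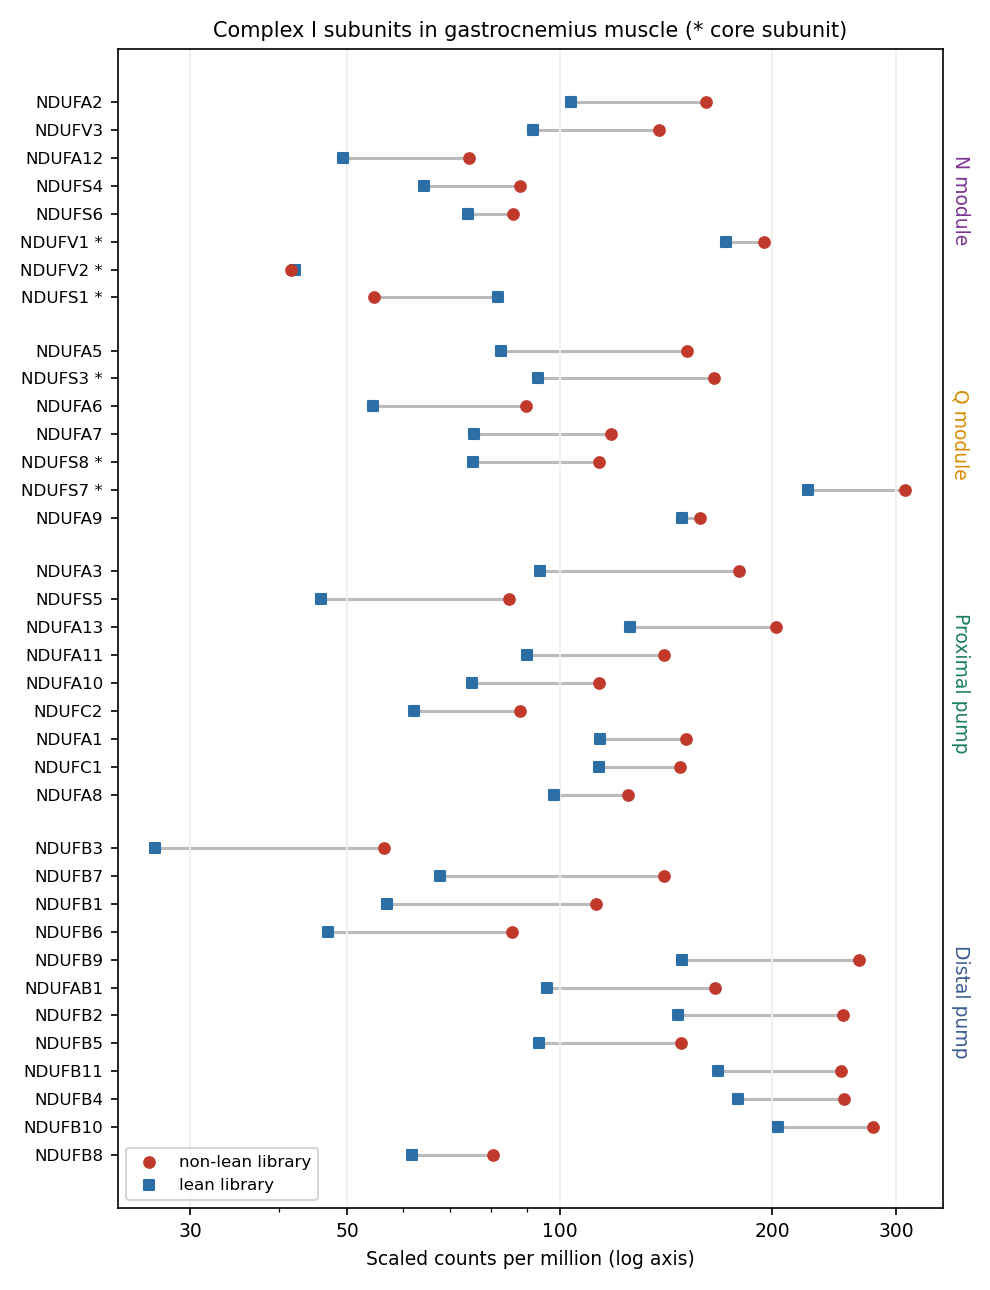
Scaled CPM (log axis) of each complex I subunit in the non-lean library (red circles) and the lean library (blue squares), grouped by module and ordered within it by ratio, with core subunits starred. The red circle lies to the right for 34 of 36 subunits, NDUFV2 is nearly equal at 41.7 and 42.2 CPM, and NDUFS1 is reversed at 54.7 and 81.9 CPM.

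The N module, with 8 members here, had a median log2 ratio of 0.33, and its lowest and highest members were at -0.58 and 0.64. Its core members were the 3 lowest of the module. Accounts of the complex differ on where NDUFA6, NDUFA7 and NDUFAB1 belong, and with these 3 placed in the N module its median was 0.59. NDUFS1, the largest core subunit and the carrier of several iron-sulphur clusters, had 731 counts in the non-lean library and 1246 in the lean library, or 54.7 and 81.9 CPM. Its log2 ratio was -0.58 [-0.72, -0.45], and it was the only one of the 36 subunits whose interval lay below 0. At 1.497-fold lower it lay just short of the 1.5-fold limit, and with DESeq2 size factors it was past the limit at 1.53-fold lower, a log2 ratio of -0.61 [-0.75, -0.48]. NDUFV2, which binds an iron-sulphur cluster next to the flavin, had 557 and 642 counts in the non-lean and the lean library, a log2 ratio of -0.02 [-0.18, 0.15]. That ratio was 0.12 with total counts and 0.02 with upper quartile scaling, so its sign depends on the scaling. NDUFV1, which holds the flavin and the NADH site, had 2608 counts in the non-lean library and 2622 in the lean library, a log2 ratio of 0.18 [0.10, 0.26].

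Summed over NDUFV1, NDUFV2 and NDUFS1, the non-lean library held 3896 counts and the lean library 4510, which is 291 and 296 CPM and a log2 ratio of -0.02 [-0.09, 0.04]. This sum joins NDUFV1 at 0.18 and NDUFS1 at -0.58. Total counts raise the ratio of the sum by 0.14, so its sign depends on the scaling. The 5 accessory members of the N module were all higher in the non-lean library, with a median of 0.59. NDUFA2, a small subunit with a thioredoxin-like fold, was highest, with 2156 and 1579 counts in the non-lean and the lean library and a log2 ratio of 0.64 [0.54, 0.73]. NDUFV3, a subunit beside the flavin end, had 1850 and 1395 counts (0.59), and NDUFA12, which resembles the assembly factor NDUFAF2, had 995 and 752 (0.59). NDUFS4, which holds the N module to the rest of the matrix arm, had 1174 counts in the non-lean library and 977 in the lean library (0.45). NDUFS6, a zinc-binding subunit, had 1147 and 1130 counts and the smallest accessory ratio of the module, 0.21 [0.09, 0.33].

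The Q module, with 7 members here, had a median log2 ratio of 0.65. In contrast to the N module, its 3 core members, NDUFS3, NDUFS8 and NDUFS7, were all higher in the non-lean library. NDUFS3, a core protein of the matrix arm near the ubiquinone site, had 2211 counts in the non-lean library and 1417 in the lean library, 1.78-fold higher at a log2 ratio of 0.83 [0.73, 0.93]. NDUFS8, which carries iron-sulphur clusters on the way to ubiquinone, had 1519 and 1149 counts in the non-lean and the lean library (0.59 [0.48, 0.70]). NDUFS7, which carries the last cluster before ubiquinone, had 4126 counts in the non-lean library and 3418 in the lean library (0.46 [0.39, 0.52]). Summed over these 3 core members, the levels were 588 CPM in the non-lean and 393 CPM in the lean library. That is a log2 ratio of 0.58 [0.53, 0.63], beside -0.02 [-0.09, 0.04] for the summed N core, a difference that was not tested.

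Among the accessory members of the Q module, NDUFA5 was highest, with 2026 counts in the non-lean library and 1257 in the lean library and a log2 ratio of 0.88 [0.77, 0.98]. NDUFA6, a protein of the LYR family that binds acyl carrier protein, had 1199 and 827 counts in the non-lean and the lean library (0.72), and NDUFA7 had 1583 and 1150 (0.65). NDUFA9 stood apart from the other members of the module. This subunit, related to short-chain dehydrogenases and placed where the matrix arm meets the membrane, had 2116 counts in the non-lean library and 2269 in the lean library, a log2 ratio of 0.09 whose interval, with an upper bound of 0.17, just held 0.

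The proximal pump, with 9 accessory members beside the ubiquinone channel, had a median log2 ratio of 0.60, and the interval of each member lay above 0. NDUFA3 was highest, with 2401 counts in the non-lean library and 1429 in the lean library, 1.91-fold higher at a log2 ratio of 0.94 [0.84, 1.03]. NDUFS5, a protein of the intermembrane space held by disulphide bonds, had 1133 and 699 counts in the non-lean and the lean library (0.88 [0.75, 1.02]). NDUFA13, also known as GRIM-19 and named for a part in cell death, had 2706 counts in the non-lean library and 1917 in the lean library (0.68). These 3 were the highest of the module.

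NDUFA11, a membrane subunit related to protein translocases, had 1879 counts in the non-lean library and 1367 in the lean library (0.65). NDUFA10, which resembles deoxynucleoside kinases, had 1520 and 1142 counts in the non-lean and the lean library (0.60). NDUFC2 had 1175 and 947 (0.50). The lowest of the module, all less than 1.5-fold higher, were NDUFA1, NDUFC1 and NDUFA8. The X-linked NDUFA1 had 2022 counts in the non-lean library and 1735 in the lean library (0.41). NDUFC1 had 1983 and 1730 counts in the non-lean and the lean library (0.38), and NDUFA8, another disulphide-bonded protein of the intermembrane space, had 1672 and 1493 (0.35).

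The distal pump, with 12 members here, had the highest median log2 ratio of the modules, 0.78, and the interval of each member lay above 0. It held the 3 highest ratios of the whole complex. NDUFB3, a small membrane-spanning subunit, had 753 counts in the non-lean library and 407 in the lean library, 2.10-fold higher at a log2 ratio of 1.07 [0.90, 1.252], but its leading transcript model alone was at 0.23 [-0.01, 0.48], which is not 1.5-fold higher. NDUFB7, a disulphide-bonded protein on the intermembrane side, had 1878 and 1029 counts in the non-lean and the lean library, 2.08-fold higher at 1.05 [0.94, 1.17]. NDUFB1 had 1505 counts in the non-lean library and 866 in the lean library, 1.98-fold higher at 0.98 [0.86, 1.11].

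NDUFB6 followed with 1143 counts in the non-lean library and 714 in the lean library (0.87). NDUFB9, a LYR protein, had 3549 and 2266 counts in the non-lean and the lean library (0.83). Its partner NDUFAB1, the mitochondrial acyl carrier protein, which also serves mitochondrial fatty acid synthesis, had 2219 and 1459 counts (0.79). NDUFA6 and NDUFB9, the LYR proteins that each seat a copy of NDUFAB1, thus had log2 ratios of 0.72 and 0.83 beside 0.79 for NDUFAB1 itself, and their intervals overlap. NDUFB2 had 3369 counts in the non-lean library and 2240 in the lean library (0.78), and NDUFB5 1987 and 1423 (0.67).

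The other 4 distal pump members were less than 1.5-fold higher. NDUFB11, encoded on the X chromosome, had 3348 counts in the non-lean library and 2552 in the lean library and lay just under the limit at 1.49-fold (0.58). NDUFB4 had 3385 and 2721 counts in the non-lean and the lean library (0.50). NDUFB10, another disulphide-bonded intermembrane space protein, had 3712 and 3105 (0.44), and NDUFB8 1076 and 940 (0.38 [0.25, 0.51]). The intermembrane space proteins NDUFB7, NDUFS5, NDUFB10 and NDUFA8 thus spread over log2 ratios of 1.05, 0.88, 0.44 and 0.35.

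**Figure D2:**
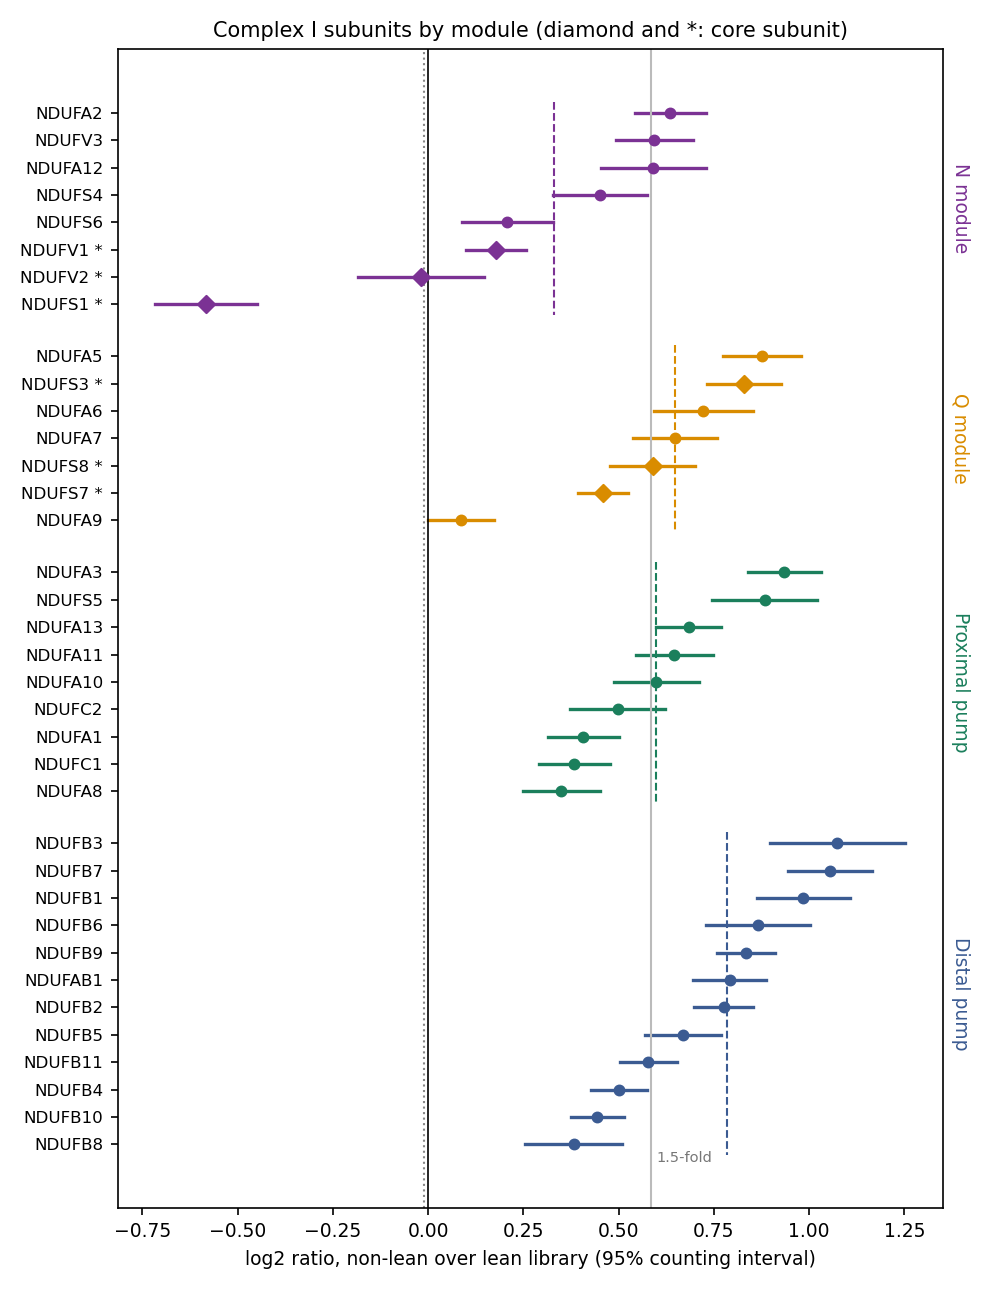
The log2 ratio, non-lean to lean, of each subunit with its 95% counting interval, by module, with core subunits as diamonds, module medians as dashed lines, the median of all tested genes as a dotted line and 1.5-fold as a grey line. The N module core diamonds lie at -0.58, -0.02 and 0.18, left of every pump subunit, and the distal pump reaches 1.07. The accessory subunits NDUFA9 of the Q module, at 0.09, and NDUFS6 of the N module, at 0.21, also lie left of every pump subunit.

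Core and accessory subunits differed in their middle and in their spread. The 6 core subunits had a median log2 ratio of 0.32, running between -0.58 and 0.83, and 2 of them were at least 1.5-fold higher. The 30 accessory subunits had a median of 0.64, running between 0.09 and 1.07, and 19 of them were at least 1.5-fold higher. Of all tested genes, 11.9% were at least 1.5-fold higher. The 6 core members lie only in the matrix arm, so that core and accessory cannot be told apart from the place in the complex over all 36. Within the N module the core members had a median of -0.02 and the accessory ones 0.59, and within the Q module the medians were 0.59 and 0.68. The 21 pump subunits had a median of 0.67.

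The makeup of the complex I counts can be compared without any scaling between libraries. It is given as each subunit's share of the 70413 complex I counts in the non-lean library and of the 54011 in the lean library. Counts are not corrected for message length, so these are shares of reads and not of molecules. All shares of a library have the same total, so a lower share of one module goes with a higher share elsewhere. The N module made up 15.9% [15.7, 16.2] of the complex I counts in the non-lean library and 19.1% [18.8, 19.5] in the lean library. Its 3 core members alone made up 5.53% [5.37, 5.70] in the non-lean library and 8.35% [8.12, 8.59] in the lean library. In percentage points, the module's share in the non-lean library was lower by 3.22 and that of its 3 core members was lower by 2.82. The distal pump made up 39.7% [39.3, 40.0] of the counts in the non-lean library and 36.5% [36.1, 36.9] in the lean library. The Q module, with 21.0% [20.7, 21.3] and 21.3% [20.9, 21.6], and the proximal pump, with 23.4% [23.1, 23.7] and 23.1% [22.7, 23.4], had overlapping intervals in the non-lean and the lean library. These intervals are exact Clopper-Pearson intervals and cover only the counting error of independent reads.

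Among single subunits, NDUFS1 made up 1.04% [0.97, 1.12] of the complex I counts in the non-lean library and 2.31% [2.18, 2.44] in the lean library. NDUFV1 made up 3.70% in the non-lean library and 4.85% in the lean library, and NDUFA9 3.01% and 4.20%. At the other end, NDUFB9 made up 5.04% in the non-lean library and 4.20% in the lean library, and the proximal pump subunit NDUFA3 3.41% and 2.65%. NDUFB7 made up 2.67% [2.55, 2.79] in the non-lean library and 1.91% [1.79, 2.02] in the lean library. The interval of the share in the non-lean library lay above that in the lean library for 11 subunits and below it for 11, and overlapped it for 14.

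The files list 62 transcript models for the 36 subunits. For 22 subunits there is 1 model, and for 13 more than 1 model received counts. Division of reads among models is estimated and its error is not in the counting intervals. In NDUFB3, the model that made up most counts in the lean library had 278 expected counts in the non-lean library and 269 in the lean library, a log2 ratio of 0.23 [-0.01, 0.48]. A second model had 394 and 84.2 expected counts in the non-lean and the lean library, a log2 ratio of 2.41 [2.07, 2.77], and made up 52.4% and 20.7% of the gene's counts. The place of NDUFB3 at the top of the complex rests on this second model, since with the leading model alone it was not 1.5-fold higher.

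NDUFV2 also shifted between models. Its leading model had 375 expected counts in the non-lean library and 525 in the lean library, a log2 ratio of -0.30 [-0.49, -0.10], while the second had 181 and 98.5, a log2 ratio of 1.07 [0.71, 1.44]. In NDUFS8 a minor model made up 10.3% of the counts in the non-lean library and 2.90% in the lean library, and the leading one had a ratio of 0.51 [0.40, 0.63]. In NDUFA7 a non-coding model made up 2.90% and 10.2%, and the coding model alone had a ratio of 0.76 [0.65, 0.88], against 0.65 for the gene. These 4 genes were chosen after their values were seen. Both models of NDUFV3 were higher in the non-lean library, the leading one at 0.58 and the minor one at 0.80, and the 3 models of the core subunit NDUFS7 at 0.51, 0.32 and 0.76.

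**Figure D3:**
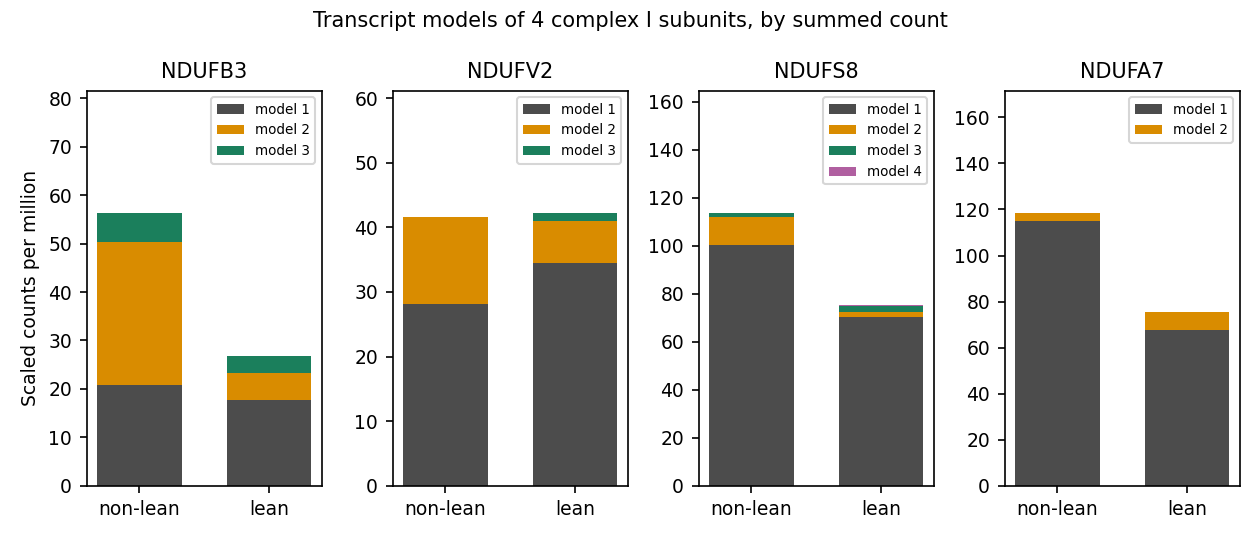
Scaled CPM of the transcript models of NDUFB3, NDUFV2, NDUFS8 and NDUFA7 in the non-lean (left bar) and the lean (right bar) library, stacked in the order of their summed counts. Model 2 of NDUFB3 stands at 29.5 and 5.54 CPM, while its model 1 stands at 20.8 and 17.7 CPM.

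Summed counts were whole numbers, within 0.03, in both libraries for 9 subunits, NDUFS1, NDUFS3 and NDUFB1 among them, and not for the other 27. The median log2 ratio of those 9, a subset taken after the values were seen, was 0.60, as it was over all 36. In RefSeq's annotation of the assembly T2T-MFA8v1.1, whose gene models may differ from those behind the files, 10 subunits overlap another gene. Of the overlapping genes, TMCO6 (74 counts in the non-lean and 70 in the lean library, with NDUFA2), CPSF2 (130 and 116, with NDUFB1) and FUT5 (0 and 1, with NDUFA11) were found in the files. Their counts are small beside those of the subunits, and strand is not known to separate them.

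Subunits of the other respiratory complexes were also higher for the most part, and again unevenly. Complexes II to V had a median log2 ratio of 0.64 over 41 tested subunits, and 23 of these were at least 1.5-fold higher and none lower. The shares of all tested genes, 11.9% higher and 15.4% lower, stand beside this count and those of the lists below. Complex IV, cytochrome oxidase, had a median of 0.73 and 10 of 12 at least 1.5-fold higher, with COX7A1 at 0.9997 and COX5B at 0.84 highest and NDUFA4, once counted with complex I, at 0.29 and COX6A2 at 0.31 lowest. Complex III had a median of 0.65 and 5 of 9, with UQCR10 and UQCRB highest at 1.16 and 0.86 and cytochrome c1, CYC1, and the large subunit UQCRC2 lowest at 0.07 and 0.17. Complex V, the ATP synthase, had a median of 0.58 and 8 of 16, with ATP5MK and ATP5MJ highest at 0.90 and 0.85 and the catalytic-head subunit ATP5F1A and the ring subunit ATP5MC2 lowest at -0.08 and 0.13. Total counts put ATP5F1A at 0.06.

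Complex II, succinate dehydrogenase, which also feeds ubiquinone, had a median of only 0.27 and none of 4 at least 1.5-fold higher. Its highest members were the iron-sulphur subunit SDHB at 0.36 and the membrane anchor SDHC at 0.36 [-0.05, 0.78], and its lowest the flavin subunit SDHA at 0.10 and the anchor SDHD at 0.18. SDHA, like NDUFV1 at 0.18, holds the flavin of its complex. Whether the complexes differ from each other was not tested, since the design has no replicates.

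Genes that build complex I had a lower median ratio than its subunits, a difference that was not tested. Of 20 assembly factors, 4 were at least 1.5-fold higher and none lower, with a median of 0.43, beside 11.9% higher among all tested genes. NDUFAF5, an enzyme that modifies NDUFS7, had 201 counts in the non-lean library and 95 in the lean library (1.26 [0.91, 1.64]), and NDUFAF4 had 417 and 273 (0.80). NUBPL, which delivers iron-sulphur clusters to complex I, had 71 and 81 counts in the non-lean and the lean library and a ratio of 0.00 [-0.48, 0.47], which was 0.14 with total counts, and NDUFAF3, an early assembly factor of the Q module, 0.10 [-0.06, 0.25]. Iron-sulphur cluster genes had a median of 0.31 over 15 genes, 3 of them at least 1.5-fold higher and none lower. BOLA3 at 1.08 and IBA57 at 0.79, both late-acting factors for 4-iron clusters, were the highest, and HSPA9 was at -0.05, or 0.09 with total counts.

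The enzymes that supply NADH to the complex were closer to the rest of the genes. Of 10 subunits of pyruvate dehydrogenase and the tricarboxylic acid cycle dehydrogenases, none was at least 1.5-fold higher or lower, and the median was 0.21. PDHA1 was at 0.58 and MDH2 at 0.33, while OGDH, at -0.20, and DLAT, at -0.18, were the lowest. Enzymes of the routes that pass electrons to ubiquinone without complex I went both ways, with a median of 0.39. Of these, 2 of 8 were at least 1.5-fold higher, against 11.9% of tested genes. ETFDH, which takes electrons from fatty acid oxidation, had 1494 counts in the non-lean library and 718 in the lean library (1.24 [1.12, 1.37]). PRODH, proline dehydrogenase, had 49 and 8 counts (2.73 [1.71, 4.09]). The glycerol phosphate dehydrogenase GPD2 was at -0.32 and choline dehydrogenase, CHDH, at -0.50 [-0.86, -0.15].

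Of 10 tested genes of coenzyme Q synthesis, none was at least 1.5-fold higher or lower, with a median of 0.29, and with COQ3 and COQ7 at 0.56 and 0.38 and COQ8A and COQ4 both at 0.02, or -0.01 with DESeq2 size factors. Transcription regulators of mitochondrial genes had a median of 0.32, and 2 of 10 were at least 1.5-fold higher, against 11.9% of tested genes. These were TFB2M at 0.61 and ESRRG at 0.60 [0.12, 1.11]. YY1 was lowest, at -0.49 [-0.64, -0.35], followed by PPARGC1B at -0.13 [-0.41, 0.15], or 0.01 with total counts.

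**Figure D4:**
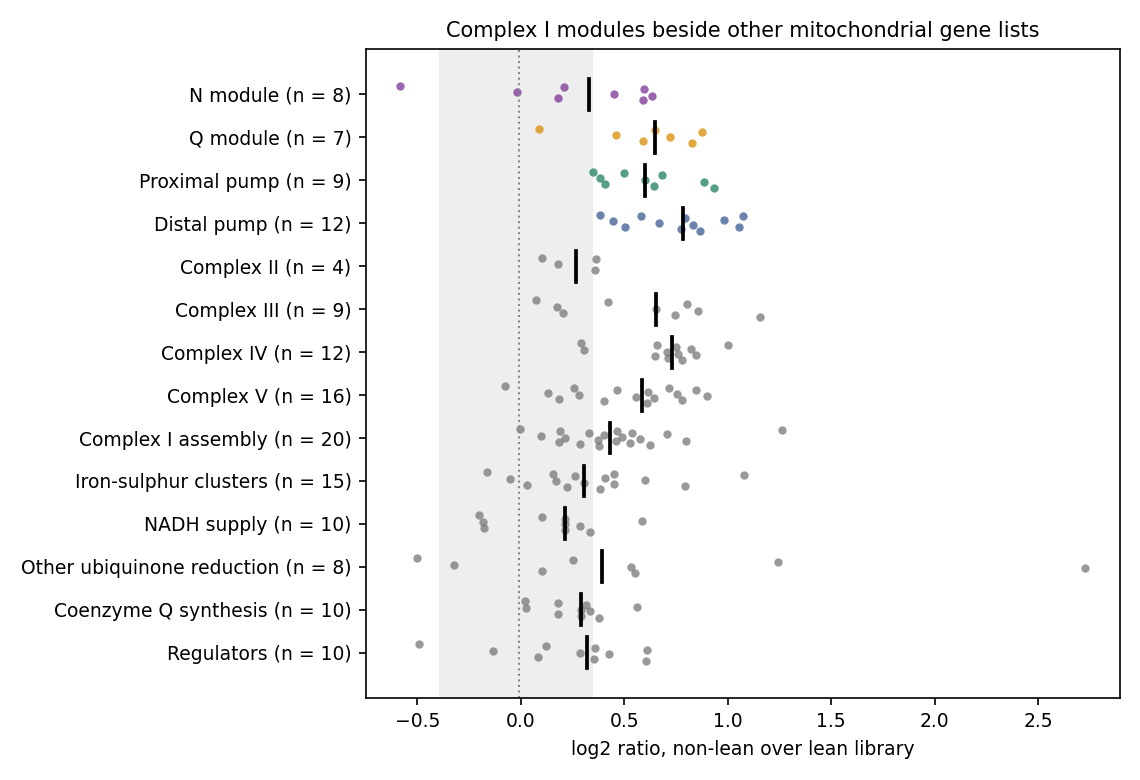
Log2 ratios, non-lean to lean, of the members of the 4 complex I modules (coloured) and of other mitochondrial gene lists (grey), with black bars at the medians, a dotted line at the median of all tested genes and grey shading between their quartiles. The distal pump median of 0.78 and the complex IV median of 0.73 lie at the right, and the N module median of 0.33 lies with complex II at 0.27.

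Markers of fibre types and of other cell types also differed between the libraries, and their part in the complex I values was not tested. Of all tested genes, 25.8% had an interval above 0 and 28.7% an interval below 0. Abundant fibre genes have narrow intervals, with a median half-width of 0.01 in the fast fibre list, so even small ratios can lie clear of 0. Genes of the muscle fibre were abundant, with skeletal actin, ACTA1, at 60131 CPM in the non-lean and 80366 CPM in the lean library. The 7 matched slow fibre markers, which do not include MYH7, all had intervals above 0, with a median log2 ratio of 0.90 and a summed level of 15936 CPM in the non-lean and 9104 CPM in the lean library. The fast fibre markers had a median of -0.46, with 7 of 9 intervals below 0 and a summed level of 93720 CPM in the non-lean and 126163 CPM in the lean library. One of these markers, TNNI2, was at -0.04, or 0.10 with total counts. The muscle fibre list shares genes, TNNT3 among them, with the fast fibre list, so their values are not separate. This muscle fibre list had a median of -0.18, with 6 of 7 intervals below 0, although DES and MYH2 were above 0 with total counts. Its exception, named after its values were seen, was the oxygen store myoglobin, MB, at 13358 CPM in the non-lean and 7645 CPM in the lean library (0.80). Summed macrophage markers were at 35.6 CPM in the non-lean and 119.5 CPM in the lean library (median log2 ratio -1.49, 8 of 9 intervals below 0), fibroblast markers at 437 and 1032 CPM (-1.75, 7 of 7) and endothelial markers at 170 and 228 CPM (-0.46, 4 of 5). Adipocyte markers summed to 65.8 CPM in the non-lean and 85.4 CPM in the lean library, with a median log2 ratio of -2.51 and 5 intervals of the 6 tested markers below 0. Most of that sum was FABP4, at 29.0 CPM in the non-lean and 24.2 CPM in the lean library (0.26), and LIPE, at 33.4 and 38.0 CPM (-0.19), while PLIN1 had 23 counts in the non-lean and 166 in the lean library (-2.64). Of 5 heart and brown fat markers, only MYH6 passed the filter for tested genes, and not all of the others are given here. NPPB was at 0 in both libraries, and UCP1 had 1 count in the non-lean and 0 in the lean library. MYH6, which shares much sequence with the unmatched MYH7, stood at 199.5 CPM in the non-lean and 170 CPM in the lean library.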

How the data were processed

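RNA from gastrocnemius muscle was sequenced in 1 non-lean and 1 lean library. Per the labels' protocols, polyadenylated RNA was fragmented, copied from random hexamers and read on a BGISEQ instrument, and no strand-marking step is named. The deposited files hold expected counts, estimated read counts per RefSeq transcript model, for 76183 models per library. 3 tools appear in the submitters' processing notes, with no role stated: RSEM 1.3.3, STAR 2.7.8a and Trim Galore 0.6.6. The genome build and any filters were not given in the sources used here.

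Values were summed per gene identifier and rounded, and 24 identifiers that had become dates were kept as they stood. Libraries were scaled by TMM over all genes (edgeR 4.0.16, R 4.3.3), with factors of 1.05 for the non-lean and 0.952 for the lean library, and DESeq2 1.42.0 gave an alternative scaling. Ratios used a prior count of 0.5 and exact Clopper-Pearson intervals of the split of each summed count (Python 3.11.15, numpy 2.4.6, pandas 2.3.3, scipy 1.17.1, matplotlib 3.10.9). Intervals cover only the counting error of independent reads. Amplified reads with no molecular identifier are not independent molecules, so the counting error itself may be wider than the intervals. The interval code was run on simulated independent counts, the setting that such intervals assume, so that run does not bear on amplified reads.

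Of 171 other genes in lists, 168 were matched, 26 by NCBI gene number, 22 by transcript accession and 1 by an older symbol, through RefSeq (T2T-MFA8v1.1). The members and lists were chosen with earlier results of these data known. All members could be named, and of each other list the 2 highest and 2 lowest tested genes, and of marker lists the 3 most abundant; markers at 0 in a library were named in addition. An item that this rule would name is not reported here. Modules were assigned from general knowledge of the structure.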

Additional observations from a re-analysis of the deposited data

How the results depend on the processing

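Total counts in place of TMM scaling shifted every log2 ratio by 0.14, and gave medians of 0.74 for complex I, 0.47 for the N module, 0.79 for the Q module, 0.74 for the proximal pump, 0.92 for the distal pump, 0.46 for core and 0.78 for accessory subunits. With that scaling 27 subunits were at least 1.5-fold higher, beside 2402 of the 13703 tested genes. With DESeq2 size factors 17 subunits and 1490 tested genes were, and NDUFS1 alone of the subunits was at least 1.5-fold lower. Upper quartile scaling gave 22 subunits and 1823 tested genes. The leading transcript model only gave 18 subunits, and no count over all tested genes was made for that setting. At a limit of 2-fold in place of 1.5-fold, 2 subunits were counted, against 4.90% of tested genes. Placing NDUFA6, NDUFA7 and NDUFAB1 in the N module, as some accounts of its assembly do, gave it a median of 0.59 beside 0.59 for the Q module and 0.78 for the distal pump, so the low median of the N module depends on that placement, while the values of its core members do not. With the leading transcript model only, 3 subunits, NDUFB3, NDUFV2 and NDUFA7, moved by more than the half-width of their interval. A prior count of 2 and TMM without the 10 most abundant genes moved no subunit by more than that. No paired analysis was possible because each group has 1 library, and for the same reason no library could be left out. Protein and promoter sequences were not used here, so the ratios could not be set against the length of the subunits.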
